A study of Rattus norvegicus with 6 samples.

Results

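Laminins are the secreted proteins that build the sheet-like network of basement membranes and of the thin matrix coat around chondrocytes. Each molecule is a cross-shaped trimer of 1 alpha, 1 beta and 1 gamma chain. The alpha chain carries most of the contacts to cell surface receptors, and the beta and gamma chains are needed for the trimer to assemble and leave the cell. A trimer is named by its chains, so that laminin-211 holds the alpha 2, beta 1 and gamma 1 chains. In cartilage, laminins are known from the pericellular matrix, where cells meet the collagen-rich territory around them.

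The genes described here are the laminin alpha, beta and gamma chain genes of the rat, chosen by gene symbol from a list of 9 names. Of these, 8 have a row in the deposited tables, out of 17954 genes in all (Lama1 was not analysed here), and all 8 passed the filter on low counts, which left 13052 genes to test. The gene Lamc3 is outside that list and is given where a trimer requires it.

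Expression was measured by mRNA sequencing in 3 libraries of rat condylar organoids, cartilage tissue grown in a special chondrogenic medium, and in 3 libraries of chondrocytes of the mandibular condyle, the head of the lower jaw, grown flat (2D culture) in DMEM with 20% fetal bovine serum. Both were kept at 37 °C with 5% CO2. Format, medium and any difference in serum go together between the groups and cannot be told apart. The serum content of the organoid medium is not labelled. Strain, age and the source of each replicate are not labelled, so the spread between libraries, on which all p-values rest, may be technical. The study set out to find how organoid and flat culture differ.

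Total counts were 18592574 to 25656808 in organoids and 25856486 to 26472447 in 2D cultures. Values are TMM-scaled CPM (counts scaled to library size), and fold changes are organoid over 2D culture on the log2 scale ± SE from edgeR's quasi-likelihood test. A gene is called where its p-value, adjusted over all 13052 genes, is under 0.05. The share called was 27.5% of genes, of which organoids were higher in 14.9% and lower in 12.6%. Scaled by total library size, 35.2% were called, and the split turned to 8.14% higher and 27% lower. Organoids differed more among themselves than 2D cultures did, with a median SD of log2 CPM over all genes of 0.69 in organoids and 0.14 in 2D cultures. The chondrocyte markers Col2a1, Acan, Sox9, Col9a1, Matn1 and Hapln1 were detected in both groups and summed to 9902 to 95752 CPM in organoids and 1490 to 1593 CPM in 2D cultures. The osteoblast markers Bglap, Ibsp, Sp7, Dmp1 and Alpl summed to 11794 to 19770 CPM in organoids and 207 to 219 CPM in 2D cultures. In whole cultures, fewer cells of a type and less RNA per cell cannot be told apart.

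Laminin transcripts were present in both formats, and the gamma 1 chain was the 1 chain gene that was called. Of the 8 chains, 0 were called higher, 1 was called lower (Lamc1) and 7 did not pass, against 27.5% of all genes called in either direction. The count called lower was 0 without 2D culture 1, 2 or 3, 2 without organoid 1 (Lamb1 and Lamc1), and 2 without organoid 3 (Lama3 and Lamc1). Without organoid 3 the count called higher was 1 (Lama2). DESeq2 also called 0 chains higher and 1 lower, and 1 of 8 chains had an unadjusted p under 0.05 in edgeR, beside 5304 of 13052 genes. Over all genes, the share called in either direction was 8.32%, 9.06% and 8.28% without 2D culture 1, 2 and 3, and 34.2%, 39.6% and 35.5% without organoid 1, 2 and 3. It was 36.7% with DESeq2, 27.6% with RLE factors, 19.3% with no low-count filter, 33.9% with limma-voom, 28.9% with weighted voom (a weight for each group) and 20.9% with a replicate block. The median log2 fold change of the 8 chains was -0.76, beside -0.03 over all genes tested. Fitted values were negative for 7 chains and positive for Lama2.

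**Figure D1:**
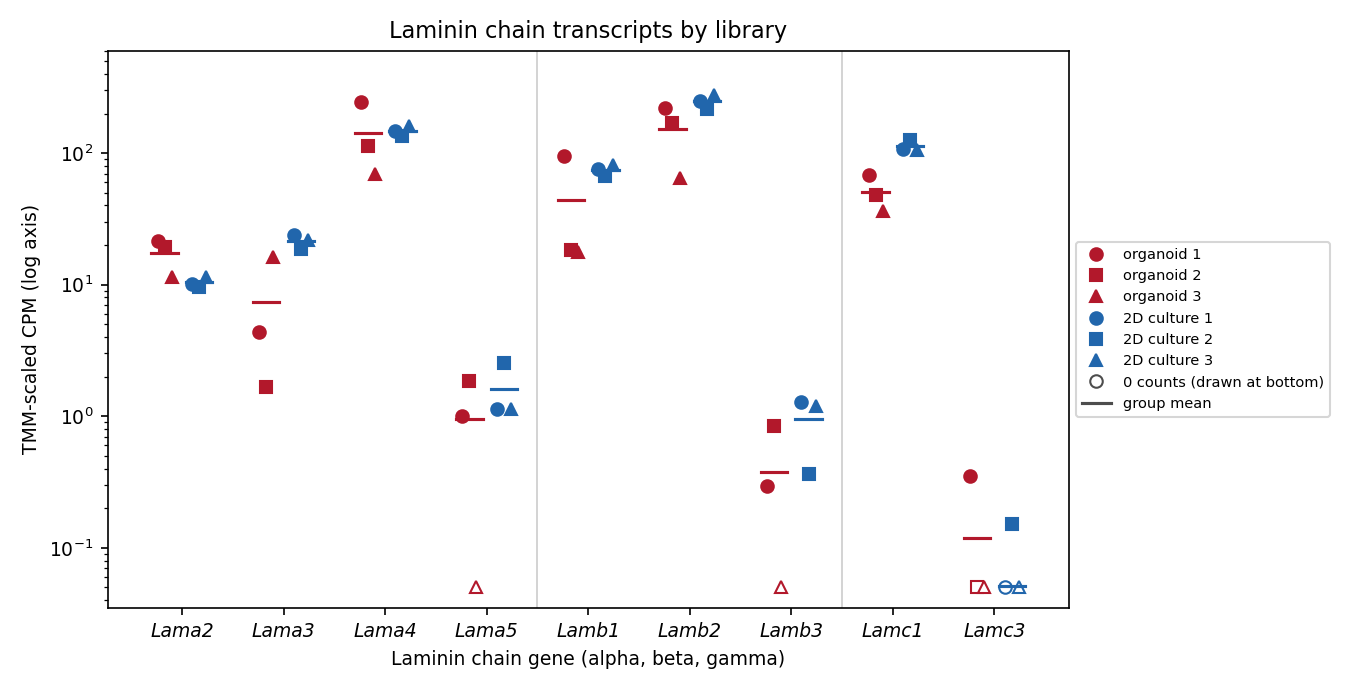
Laminin chain transcripts in each library, as TMM-scaled CPM on a log axis, with organoids (red) left of 2D cultures (blue), symbols for libraries 1 to 3 and lines for group means. Lamc1 lies lower in all organoids (36.2 to 68.8 CPM) than in any 2D culture (106 to 127 CPM).

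The upstream sequences of 3 chain genes are shown, and no result below rests on a sequence. Lamc1 is the called chain. Lama4 is an alpha chain whose counts were higher relative to Lamc1. Lama3 is the chain with no overlap between groups that did not pass. RefSeq (build GRCr8) gives an entry for 7 of the 8 measured chains. Each sequence is the 250 bases before the RefSeq start site, 5′ to 3′ on the gene's strand, at chr13:68051987-68052236 (minus strand), chr20:43946648-43946897 (plus strand) and chr18:3952517-3952766 (plus strand). Capitals mark matches, on either strand, to the GC box GGGCGG, the TATA box TATAAA, the hypoxia response core ACGTG, the AP-1 site TGACTCA and the TEAD site GGAATG.
Lamc1: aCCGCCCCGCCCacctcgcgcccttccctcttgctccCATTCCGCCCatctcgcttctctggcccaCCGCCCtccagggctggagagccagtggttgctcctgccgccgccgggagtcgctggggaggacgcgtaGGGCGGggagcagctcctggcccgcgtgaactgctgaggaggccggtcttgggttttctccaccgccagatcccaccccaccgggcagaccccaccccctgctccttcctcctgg
Lama4: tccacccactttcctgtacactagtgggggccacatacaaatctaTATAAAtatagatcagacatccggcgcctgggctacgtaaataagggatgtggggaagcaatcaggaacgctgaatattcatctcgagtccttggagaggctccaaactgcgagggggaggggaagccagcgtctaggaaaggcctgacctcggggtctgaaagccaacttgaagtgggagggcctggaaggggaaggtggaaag
Lama3: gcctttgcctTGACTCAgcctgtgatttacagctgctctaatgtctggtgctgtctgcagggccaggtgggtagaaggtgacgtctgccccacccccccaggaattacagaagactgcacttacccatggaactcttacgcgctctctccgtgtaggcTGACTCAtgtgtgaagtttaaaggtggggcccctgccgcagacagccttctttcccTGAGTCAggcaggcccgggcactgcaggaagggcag

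The windows differ in composition. Lamc1 has 71.2% G and C and 19 CpG dinucleotides, Lama4 53.2% and 8, and Lama3 58% and 6, beside a median of 51.2% G and C over the 33469 promoters of the table. Lamc1 holds 5 GC boxes, which include a pair that overlap by a base and 1 that overlaps its TEAD site. Lama4 holds 1 TATA box and Lama3 holds 3 AP-1 sites. The Lama3 start lies inside the gene's RefSeq span, and the counts do not separate transcripts. Of all promoters of that length, 30.5% hold a GC box, 12.9% a TATA box, 16.6% the hypoxia core, 4.05% an AP-1 site and 12.1% a TEAD site. Among the 7 chains with an entry, 4 hold a GC box, 1 a TATA box, 1 an AP-1 site, 1 a TEAD site and 0 the hypoxia core. These matches describe letters only.

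Lamc1 (gene ID 117036) encodes the gamma 1 chain, the gamma chain of most laminin trimers. It had 68.8, 47.6 and 36.2 CPM in organoid 1, 2 and 3, against 107, 127 and 106 CPM in 2D culture 1, 2 and 3. Every organoid was below every 2D culture. The group means were 50.9 ± 16.5 CPM in organoids and 113 ± 11.5 CPM in 2D cultures (SD, n = 3 each), and the log2 fold change was -1.16 ± 0.28 (edgeR adjusted p = 0.0232). The call was lost without 2D culture 1, 2 or 3, at an adjusted p of 0.0874, 0.0997 and 0.087, while the log2 fold change stayed between -1.22 and -1.09. It held with each of the other 10 settings run. Log2 CPM profiles over the 6 libraries were also compared after centring each on the gene's own mean, which takes out the expression level. The 3 genes nearest to Lamc1, out of 12227 non-laminin genes with at least 1 CPM, were Mgst2, Zbtb48 and Ergic1. Their distances were 0.18 to 0.21 log2 units. With 2 groups of 3 such likeness rests mainly on the group difference, and it is given as a description.

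Lamc3, the gamma 3 chain, was rare. It had 6, 0 and 0 counts in organoids and 0, 5 and 0 counts in 2D cultures and was removed by the low-count filter.

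Beta chains differed widely among organoids. Lamb1 (gene ID 298941), the beta 1 chain of the common trimers, had 94.98, 18.3 and 17.8 CPM in organoid 1, 2 and 3, against 75.1, 67.6 and 81.2 CPM in 2D cultures. Organoid 1 lay above every 2D culture and the other organoids far below, a 5.32-fold range within the group. The log2 fold change was -0.77 ± 0.66 (edgeR adjusted p = 0.425), and without organoid 1 it was -2.02 ± 0.19 (edgeR adjusted p = 0.00362).

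Lamb2 (gene ID 25473), the beta 2 chain, known from muscle endplates and the kidney filter, had 220.9, 169.7 and 64.7 CPM in organoids, against 249.6, 216 and 278 CPM in 2D cultures. Organoid 1 overlapped the 2D cultures and organoid 3 was far below them. The log2 fold change was -0.71 ± 0.43 (edgeR adjusted p = 0.265). It passed when scaled by total library size (-1.38 ± 0.38, edgeR adjusted p = 0.0301), a scaling that moved the median of all genes by -0.61. RefSeq also lists a pseudogene named for Lamb2, although each laminin value was a whole count in each library. Lamb3 (gene ID 305078), the beta chain of the epithelial trimer, had 5, 14 and 0 counts in organoids and 42, 12 and 39 counts in 2D cultures, with overlap, and did not pass (edgeR adjusted p = 0.493).

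None of the 4 measured alpha chains passed the test with all 6 libraries, and their fitted values differed in sign. Lama2 (gene ID 309368), the alpha chain of muscle and nerve laminins and a ligand of dystroglycan, had 21.3, 19.3 and 11.4 CPM in organoids, against 10.1, 9.63 and 11.5 CPM in 2D cultures. The lowest organoid fell just inside the range of the 2D cultures. The log2 fold change was 0.74 ± 0.35 (edgeR adjusted p = 0.16), and without organoid 3 it passed (0.95 ± 0.23, edgeR adjusted p = 0.0288). With total library size it was 0.09 (edgeR adjusted p = 0.859).

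Lama4 (gene ID 309816), an alpha chain of vessel walls, fat and mesenchyme, had 246, 114 and 69.0 CPM in organoids, against 147, 136 and 161 CPM in 2D cultures. Organoid 1 was above and organoids 2 and 3 below all 2D cultures. The means were 143 ± 91.8 CPM in organoids and 148 ± 12.8 CPM in 2D cultures (SD, n = 3 each), with a log2 fold change of -0.05 ± 0.45 (edgeR adjusted p = 0.943). That SE is too wide to show that the level was the same in both formats. The sign turned without organoid 2 (0.14) and without organoid 3 (0.27), with neither past the threshold.

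Lama3 (gene ID 307582), the alpha chain of epithelial laminins, had 4.36, 1.68 and 16.2 CPM in organoids, against 23.9, 18.55 and 21.9 CPM in 2D cultures. All organoids were below all 2D cultures, with organoid 3 near them. The log2 fold change was -1.53 ± 0.77 (edgeR adjusted p = 0.184), and without organoid 3 it passed (-2.83 ± 0.49, edgeR adjusted p = 0.0124). Lama5 (gene ID 140433), the broadly expressed alpha chain of many adult basement membranes, was rare, with 17, 31 and 0 counts in organoids and 37, 83 and 37 counts in 2D cultures (edgeR adjusted p = 0.717). For organoid 3, a count of 0 allows up to 0.142 CPM. Lama3 and Lamc1 were the 2 of 8 chains with no overlap between groups, both lower, where 53.5% of all genes had no overlap and 30.2% had none and were lower in organoids.

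**Figure D2:**
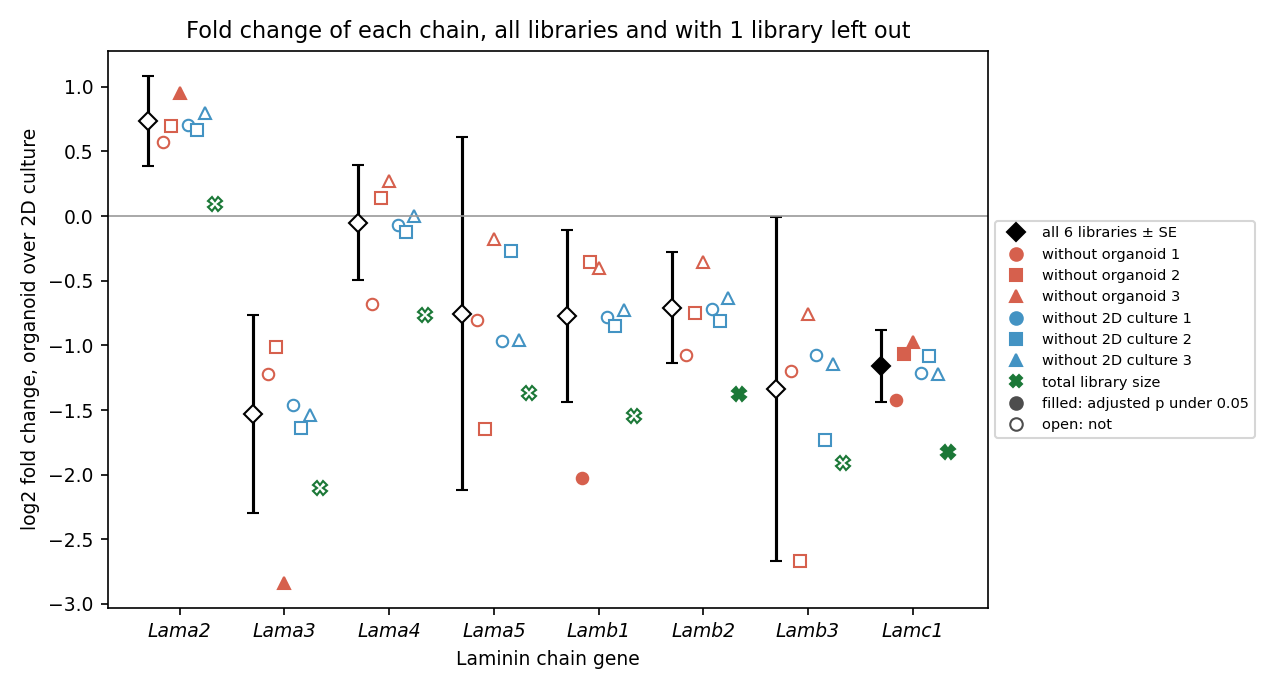
Log2 fold change of each chain, organoid over 2D culture, with all 6 libraries (diamonds, ± SE), with each library left out in turn, and with total library size. Filled symbols have an adjusted p under 0.05. Lamb1 reaches -2.02 without organoid 1 and Lama3 reaches -2.83 without organoid 3.

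Organoid 1 was the highest of the 3 organoids in 5 of 8 chains (Lama2, Lama4, Lamb1, Lamb2 and Lamc1), where it was the highest in 32.4% of all genes. Organoid 3 was the lowest in 7 of 8, all but Lama3, where it was the lowest in 34.2% of all genes. The CPM of the 8 chains summed to 657, 373 and 215 in organoid 1, 2 and 3, against 616, 577 and 663 in 2D cultures. The median SD of log2 CPM over the 8 chains was 1.16 in organoids and 0.16 in 2D cultures.

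Ratios of 2 chains within a library do not depend on library scaling. Counts of each chain were therefore set against Lamc1, with 0.5 added to both, and tested with two-sided exact permutation tests over the 20 splits of 3 against 3, which cannot give a p below 0.1. Transcript lengths were not available, so that a ratio is read across libraries only and not as molecules of a chain per molecule of another. Lama2 stood at 0.31, 0.406 and 0.316 counts per Lamc1 count in organoids, against 0.0946, 0.0761 and 0.108 in 2D cultures. All organoids were above all 2D cultures, with a mean difference of 1.89 log2 units, or 3.71-fold (exact permutation p = 0.1, adjusted p = 0.35 over 7 ratios). Lama4 stood at 3.57, 2.39 and 1.91 in organoids, against 1.37, 1.07 and 1.52 in 2D cultures, likewise with no overlap (0.96 log2 units, exact permutation p = 0.1, adjusted p = 0.35).

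The other 5 ratios overlapped between groups. Lamb2 stood at 3.21, 3.56 and 1.79 per Lamc1 count in organoids and 2.32, 1.70 and 2.62 in 2D cultures (exact permutation p = 0.4), and Lamb1 at 1.38, 0.385 and 0.494 in organoids and 0.699, 0.533 and 0.763 in 2D cultures (exact permutation p = 0.9). Ratios with no overlap were common over all genes. Of 13051 genes, 49.5% had a higher ratio to Lamc1, itself lower, in all organoids than in any 2D culture, beside 2 of 7 chains. In either direction 57.4% had no overlap, beside 53.5% for CPM not divided by Lamc1. Without organoid 3, the number of chains with no overlap was 4. The share over all genes was not computed for that setting, and fewer libraries make overlap less likely, so that count cannot be judged.

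**Figure D3:**
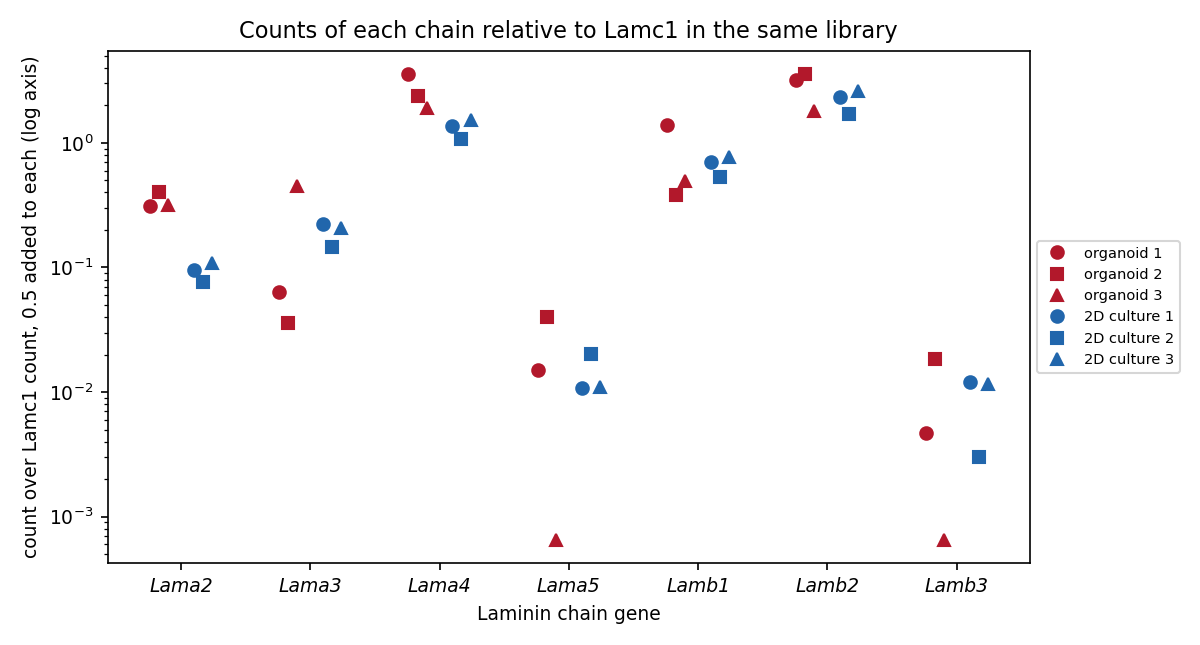
Counts of each chain per Lamc1 count in the same library, 0.5 added to both, on a log axis, with organoids (red) left of 2D cultures (blue). Lama2 and Lama4 lie higher in all 3 organoids, while Lamb1, Lamb2, Lama3, Lama5 and Lamb3 overlap.

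The measured chains limit which trimers could be made. Of 13 trimers listed from textbook knowledge, 11 have all chains in the tables. A chain was taken as detected at 10 counts or more in a library. All 3 chains were detected in each of the 3 organoids for 6 trimers, and in each of the 3 2D cultures for 8. The 6 were laminin-211, laminin-221, laminin-311, laminin-321, laminin-411 and laminin-421. Laminin-511 and laminin-521, the trimers of Lama5, had all chains in 2 of 3 organoids and 3 of 3 2D cultures, as organoid 3 had 0 counts of Lama5. For laminin-213, laminin-423 and laminin-523, Lamc3 was below 10 counts in each library. Transcripts of all chains show neither that they are in the same cell nor that a trimer is secreted.

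**Figure D4:**
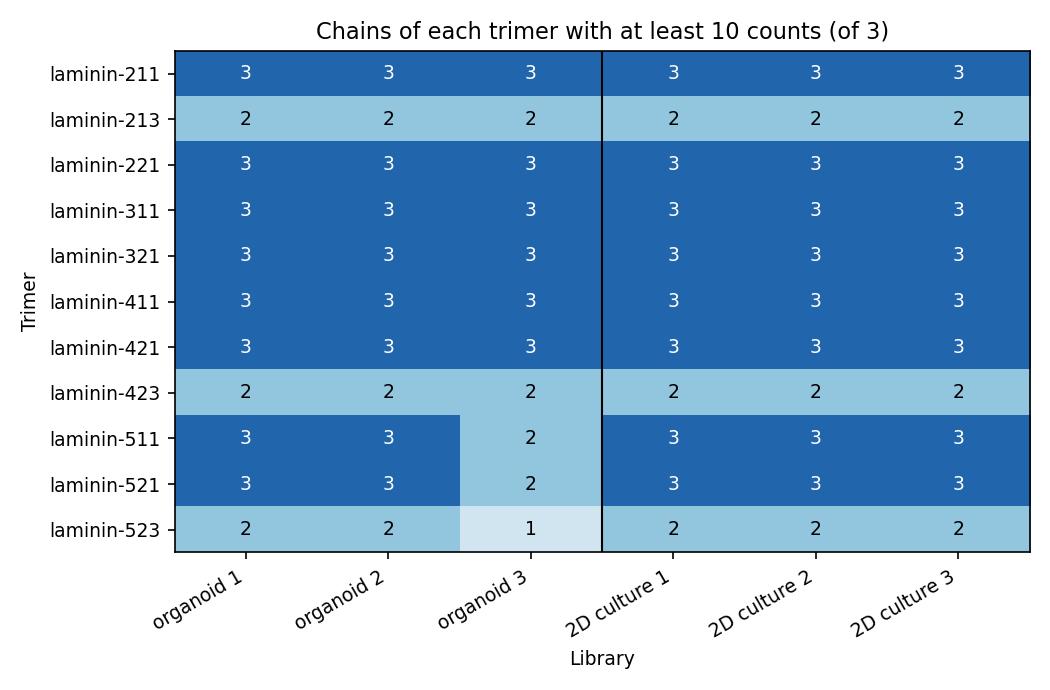
Number of chains, of 3, that had at least 10 counts in each library for 11 laminin trimers, organoids left of 2D cultures. Laminin-511 and laminin-521 are incomplete in organoid 3 and complete in the other organoids and in all 2D cultures.

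Summed markers of other cell types that make these chains were low in both formats for epithelial, endothelial and Schwann cells, but not for mural cells. The epithelial markers (7 of 8 in the tables) summed to 1.92 to 7.19 CPM in organoids and 4.02 to 5.78 CPM in 2D cultures, with Krt14 at 0 in both groups and Cdh1 at 0 in 2D cultures. The 7 endothelial markers, named beside Lama4 and Lama5, summed to 0.142 to 4.71 CPM in organoids, with Kdr at 0, and to 0.52 to 0.805 CPM in 2D cultures, with Cdh5, Emcn and Tie1 at 0. The 5 Schwann cell markers summed to 0.52 to 1.77 CPM in organoids, with Sox10 at 0, and 2.54 to 2.57 CPM in 2D cultures. The mural cell markers were Rgs5, Pdgfrb, Cspg4, Myh11, Des, Notch3 and Kcnj8. These 7 summed to 410 to 1343 CPM in organoids and 392 to 474 CPM in 2D cultures, where Rgs5 was at 0. A sum does not show that each marker was abundant. The part of mural cells in the level of Lama4 was not tested.

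The receptor genes called were Itga3, Itgb1 and Cd151, and the other integrin chains listed were not called. Of 8 laminin receptor genes, 3 were called lower, 0 higher and 5 did not pass, beside 12.6% of all genes called lower, and the median log2 fold change was -0.70. Itga3, the integrin alpha 3 chain that binds the Lama3 and Lama5 laminins, had 2.24, 6.91 and 0 CPM in organoids, against 77.7, 62.1 and 70.0 CPM in 2D cultures (-4.53 ± 1.24, edgeR adjusted p = 0.0367). Cd151, a tetraspanin that partners laminin-binding integrins, fell by 2.30 on the log2 scale (edgeR adjusted p = 0.00646), and Itgb1, the beta chain they share, by 1.63 (edgeR adjusted p = 0.0195). Without 2D culture 1, 2 or 3, Itga3 and Itgb1 lost their calls (edgeR adjusted p = 0.0719 to 0.113), leaving 1, and Itga3 also lost it without organoid 1 (edgeR adjusted p = 0.0969). The number called higher was 1 with DESeq2, without organoid 2 and without organoid 3.

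Dag1, which encodes dystroglycan, had 414, 191 and 269 CPM in organoids and 184, 179 and 194 CPM in 2D cultures and did not pass (0.65 ± 0.30, edgeR adjusted p = 0.158). Integrin alpha 6 (Itga6) followed the pattern of Lamb1, with 66.5, 10.8 and 17.0 CPM in organoids and 53.7, 62.8 and 53.3 CPM in 2D cultures (edgeR adjusted p = 0.369).

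The dystrophin complex ties dystroglycan to the actin cytoskeleton. Of 11 of its genes, 4 were called higher, 1 lower and 6 did not pass, beside 14.9% and 12.6% of all genes, with a median log2 fold change of 0.87. Sgca, the alpha-sarcoglycan gene of striated muscle, had 39.2, 66.5 and 17.4 CPM in organoids, against 1.75, 2.23 and 2.51 CPM in 2D cultures (4.24 ± 0.55, edgeR adjusted p = 0.0032). Sntb2, a syntrophin adaptor, was the steadiest in organoids, with 217, 223 and 220.0 CPM there and 54.7, 60.9 and 53.4 CPM in 2D cultures (1.97 ± 0.18, edgeR adjusted p = 0.0009).

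Sntb1, another syntrophin and the 1 gene called lower, had 3, 0 and 0 counts in organoids, against 80, 113 and 124 counts in 2D cultures. Summed, these are 3 counts in organoids and 317 in 2D cultures, a 59.2-fold lower level (95% exact interval 20.1 to 289, counting error only). All 3 counts come from organoid 1, and without it the fitted log2 fold change is -9.46, against -5.72 with all libraries, a value that depends on the prior count. Utrn, the dystrophin relative found outside muscle fibres, rose by 1.64 ± 0.24 and the membrane protein gene Sspn by 1.22 ± 0.33 (edgeR adjusted p = 0.00454 and 0.0346), and Sspn is named because it completes the 4 that rose. Dmd, the dystrophin gene itself, had 29, 0 and 35 counts in organoids, against 382, 398 and 357 counts in 2D cultures. It was lower with no overlap and did not pass (-3.36 ± 1.19, edgeR adjusted p = 0.0777). Sspn lost its call in 7 of the 13 other settings, among them total library size (0.57). The count lower was 0 without 2D culture 1, 2 or 3 and with the replicate number as a block, 4 with total library size, and 2 with DESeq2, with both voom fits and without organoid 1, 2 or 3. The 6 skeletal muscle markers, all in the tables, summed to 4.99 to 57.0 CPM in organoids, with Myod1 at 0, and 1.502 to 4.74 CPM in 2D cultures, with Mb at 0, and their part in these changes was not tested.

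A further list holds enzymes linked to the making of matriglycan, the sugar chain through which dystroglycan grips the Lama2 laminins. Of 12 genes, 1 was called lower, 0 higher and 11 did not pass, beside 12.6% of all genes called lower and 14.9% higher, with a median log2 fold change of -0.18. Pomgnt1, the gene called lower, had 47.5, 30.9 and 49.2 CPM in organoids, against 132, 122.8 and 118 CPM in 2D cultures (-1.55 ± 0.24, edgeR adjusted p = 0.00567). Every organoid was below every 2D culture. Large2, a glycosyltransferase that extends the chain, had 6.54, 13.2 and 2.56 CPM in organoids, against 1.38, 1.80 and 2.23 CPM in 2D cultures, with no overlap, and did not pass (2.04 ± 0.72, edgeR adjusted p = 0.079). Large2 had fractional counts in 4 libraries, a sign of shared reads. The number called lower was 3 without organoid 2, with total library size and with limma-voom, and 2 with DESeq2, without organoid 1 and without organoid 3, and the number higher was 2 with DESeq2 and 1 without organoid 1, 2 or 3.

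Partners of laminin in the basement membrane include the collagen IV network, nidogens and proteoglycans. Of 17 genes, 14 were tested, of which 1 rose, 5 fell and 8 did not pass, beside 14.9% of all genes called higher and 12.6% lower, with a median log2 fold change of -1.09. Col4a1 and Col4a2, the main chains of the collagen IV network that laminin sheets are joined to, had 17.6 ± 13.0 and 31.1 ± 15.9 CPM in organoids, against 276 ± 6.74 and 261 ± 22.1 CPM in 2D cultures (SD, n = 3 each; edgeR adjusted p = 0.0036 and 0.0045). Col4a5 fell by 5.19 on the log2 scale (edgeR adjusted p = 0.0177), and Col4a3, at 0 counts in organoids and 398 in 2D cultures, was at least 74.4-fold lower. Nid1, a linker that binds the gamma 1 chain, fell by 2.80 on the log2 scale (edgeR adjusted p = 0.0168). The other nidogen, Nid2, did not pass (0.54 ± 0.82, edgeR adjusted p = 0.657). Hspg2, the proteoglycan perlecan, had 1009, 290 and 343 CPM in organoids, against 206, 214 and 228 CPM in 2D cultures. It had no overlap and did not pass (1.34 ± 0.49, edgeR adjusted p = 0.0865). Agrn, the proteoglycan agrin, which binds laminin and dystroglycan, had 27.2, 47.3 and 29.1 CPM in organoids, against 5.61, 6.88 and 9.19 CPM in 2D cultures (2.26 ± 0.35, edgeR adjusted p = 0.00588).

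Without 2D culture 1, 2 or 3 the number of these partners that fell was 2, as Col4a3, Col4a5 and Nid1 lost their calls. The number that fell was 8 without organoid 1. The number that rose was 3 without organoid 2, and 2 without organoid 3, with DESeq2 and with weighted voom. Among 7 netrin and laminin-like genes, 5 were tested, 1 fell and 0 rose, beside 12.6% of all genes called lower and 14.9% higher. Ntn1, which encodes a guidance protein with laminin-like domains, had 0 counts in organoids and 307 in 2D cultures, at least 57.4-fold lower (edgeR adjusted p = 0.00939), and was not called without 2D culture 1, 2 or 3. Ntng2 had 5.07, 24.6 and 0 CPM in organoids, against 0.398, 0.336 and 0.279 CPM in 2D cultures. Its fitted value was the highest of this list, with overlap, and it did not pass (4.85 ± 1.86, edgeR adjusted p = 0.098). The number of netrin genes that fell was 2 without organoid 1 and without organoid 3, and 2 rose without organoid 3 and with DESeq2.

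**Figure D5:**
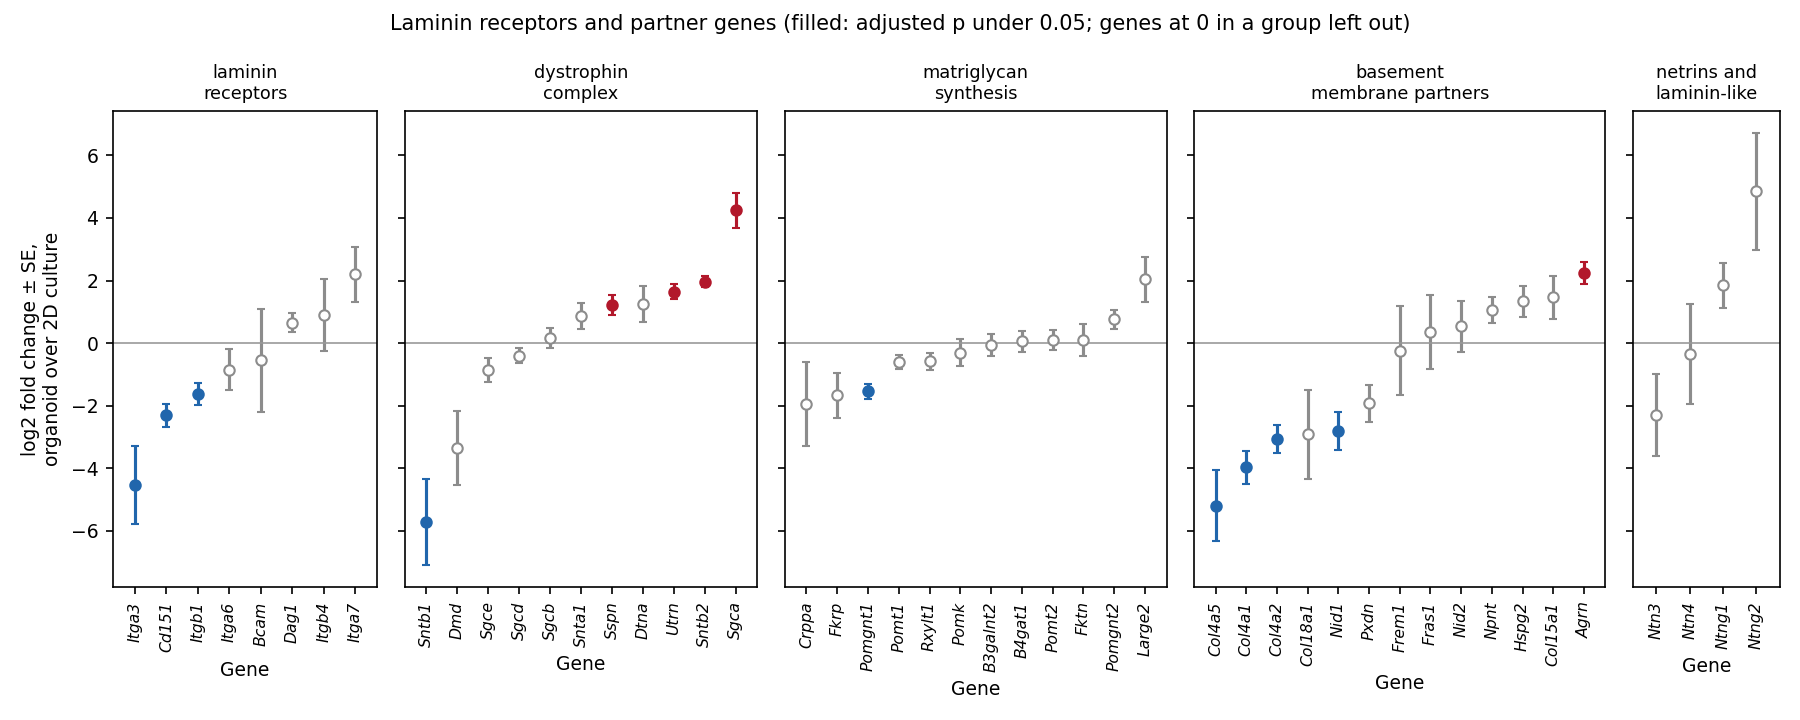
Log2 fold change ± SE, organoid over 2D culture, of laminin receptors and partner genes, leaving out genes at 0 in a group. Filled points were called. Sgca (4.24) and Agrn (2.26) lie highest among called genes and Sntb1 (-5.72) lowest.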

How the data were processed

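For each of 6 libraries the authors deposited expected counts (gene-level estimated counts, not normalised), with 1846 to 2501 fractional values each. HISAT, HISAT2, Bowtie2, RSEM and DESeq2 are named, with neither version nor role, per the submitters' processing notes. Not given in the sources used here are the build of the genome, its annotation and whether counting used strand. Sample titles gave the groups and replicate numbers.

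Rounded counts were tested in edgeR 4.0.16 (R 4.3.3). The low-count filter was filterByExpr at a minimum of 10, and TMM factors were 0.662, 0.896 and 0.877 for organoids and 1.23, 1.27 and 1.23 for 2D cultures. The robust quasi-likelihood test was adjusted by Benjamini-Hochberg over 13052 genes, and SE is the size of the log2 fold change divided by the root of F. Alternatives were DESeq2 1.42.0, voom (limma 3.58.1, with and without group weights), RLE factors, total library size, no filter, a replicate block and leaving out each library. The steps were tested on simulated data with the same spread in both groups, unlike these libraries. A count of 0 allows 3 counts, or 0.0917 to 0.18 CPM per library. Intervals and limits cover counting error only. No replicate pair agreed within sampling noise.

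The members and lists were chosen with earlier results of these data known. Some genes are not reported here, and the lists are counted without them. All 8 measured chains are named. From each list up to 4 called genes of the largest change with at least 1 CPM are named, plus the largest called in the opposite direction. Nid1, Sspn and partner genes that did not pass were added after their values were seen. Macrophage markers summed to 10.6 to 52.5 CPM in organoids and 7.12 to 10.2 CPM in 2D cultures, and adipocyte markers to 5.82 to 13.4 CPM in organoids and 0.337 to 0.526 CPM in 2D cultures.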

Additional observations from a re-analysis of the deposited data

How the results depend on the processing

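The number of laminin chains called lower was 0 to 2 with 1 library left out, against 1 with all, and 2 with total library size, and the number called higher was 0 to 1. All genes called numbered 1109 to 5321 with 1 library left out, against 3594, and the partner genes called 8 to 23, against 16, and 25 with DESeq2. Chain ratios to Lamc1 with no overlap numbered 2 to 4, and the share over all genes was computed with all 6 libraries only. With 1 library left out, the log2 fold change of Lama4 ran from -0.68 to 0.27 and its sign turned without organoid 2 (0.14) and organoid 3 (0.27). For the ratio to Lamc1 it turned for Lama5 with an offset of 5 counts (0.28) and without organoid 3 (0.88), for Lamb3 likewise (0.30 and 0.31), and for Lamb1 without 2D culture 1 (0.01), 2D culture 3 (0.07), organoid 2 (0.33) and organoid 3 (0.15). With 1 library left out these ratios ran from -2.09 to 0.88 (Lama5), -2.09 to 0.31 (Lamb3) and -0.59 to 0.33 (Lamb1). The cause was not tested. Lama5 and Lamb3 rest on at most 31 counts in an organoid. Replicate numbers are shared between the groups, and the deviations of same-numbered libraries correlated weakly (0.06, 0.19 and 0.02). With 3 libraries per group these values cannot show whether libraries were paired. With the number as a replicate block 2730 genes and 15 partner genes were called, 1 chain was lower (Lamc1, -1.20) and 0 were higher. Not every library correlated best with its own number. The planned makeup of alpha and beta chains per length was not run for lack of transcript lengths.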
